A study of Mus musculus with 3 samples.

Results

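Zfp36, Zfp36l1, Zfp36l2, Zc3h12a and Rc3h1 encode proteins that shorten the life of cytokine mRNAs. Their H3K27ac, the acetylation of lysine 27 of histone H3 found at active promoters and enhancers, is described here in myeloid cells sorted from tumours grown in mice. Members were taken by name: every region of the deposited table whose gene list holds 1 of the 5 symbols was kept, which gave 13 of 22399 regions. Zfp36l2 has 4 regions, Zfp36 and Zc3h12a have 3 each, Zfp36l1 has 2 and Rc3h1 has 1.

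ZFP36 (tristetraprolin) and its paralogs ZFP36L1 and ZFP36L2 bind AU-rich elements in the untranslated tails of short-lived mRNAs such as that of TNF, and recruit the CCR4-NOT complex, which removes the poly(A) tail. Regnase-1, the product of Zc3h12a, is an endonuclease that cuts stem-loops in mRNAs such as that of IL-6, and Roquin-1, the product of Rc3h1, binds similar stem-loops and also recruits CCR4-NOT. In myeloid cells Zfp36 and Zc3h12a are known as genes that inflammatory stimuli induce and whose products limit the same stimuli.

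H3K27ac was measured by ChIP-seq in 1 library from mice given GNE-781, a bromodomain inhibitor of the acetyltransferases CBP and EP300, and in 1 library from mice given the vehicle MCT. The inhibitor was given by mouth at 25 mg/kg, 2 doses a day for 7 days, and the vehicle on the same schedule. All mice were female SCID.beige animals aged 6 to 8 weeks at the start, a strain without functional T and B cells, and carried subcutaneous tumours grown from injected cells. The tumour lines named are MDA.MB.231-X1.1 and CT26, and the titles of both libraries read tnbc. Myeloid-derived suppressor cells were sorted from the tumours as CD45+CD11b+Ly6C+ cells, with or without Ly6G and negative for the macrophage antigen that Adgre1 encodes. The number of mice behind a library is not given. The third library, pooled input, was not used here.

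Regions were assigned to all 10 neutrophil markers and all 5 pan-myeloid markers searched, to 3 of 6 monocyte markers, to 2 of 4 markers of mature macrophages, to 2 of 6 T, B and NK cell markers and to 3 of 6 epithelial, stromal and endothelial markers. A region counts here where the table's gene list names the marker. It can lie far from the start or be shared, as at Cd3g (14973 bp), Cd79a (5474 bp) and Pecam1 (41007 bp). The strongest region of the endothelial marker Kdr lies at its start instead (middle at 147 bp) and lists no other gene. Its signal was 4.34 with inhibitor and 14.2 with vehicle. Adgre1, whose product was excluded in the sort, had 1 region, with a signal of 3.70 with inhibitor and 12.8 with vehicle. At the strongest region of each gene, the medians of these marker lists lay between -2.05 (T, B and NK) and -1.46 (mature macrophages) on the log2 scale used below. The part of the cell makeup in the results was not tested. Fewer cells with the mark and less of the mark per cell cannot be told apart in such bulk libraries.

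All 13 regions had less H3K27ac signal with inhibitor than with vehicle, as did 99.7% of all regions. Signal here means fragment pileup as deposited, a mean over each region. It ranged from 3.02 to 9.81 with inhibitor and from 12.0 to 42.0 with vehicle, so the lowest vehicle value was above the highest inhibitor value. Regions are built from called intervals, and 9 of the 13 had an interval called with vehicle alone. Of all regions, 99.6% had one called with vehicle and 10.3% one called with inhibitor. The direction and this gap are thus in part set by how regions entered the table. Ratios lay between 2.44-fold and 5.38-fold lower. The difference used from here on, log2(inhibitor signal + 1) minus log2(vehicle signal + 1), ran from -2.26 to -1.16 with a median of -1.86, against -1.61 over all regions (quartiles -1.87 and -1.33). All 13 regions were at least 2-fold lower on this scale, as were 93.4% of all 22399 regions, so this count is near the background. There is no replicate, so no error and no test can be given for any value. Any scaling factor common to a whole library would enter all 13 differences. Relative to the median of all regions, 8 of the 13 regions lay lower and 5 higher, from -0.66 to 0.45.

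**Figure D1:**
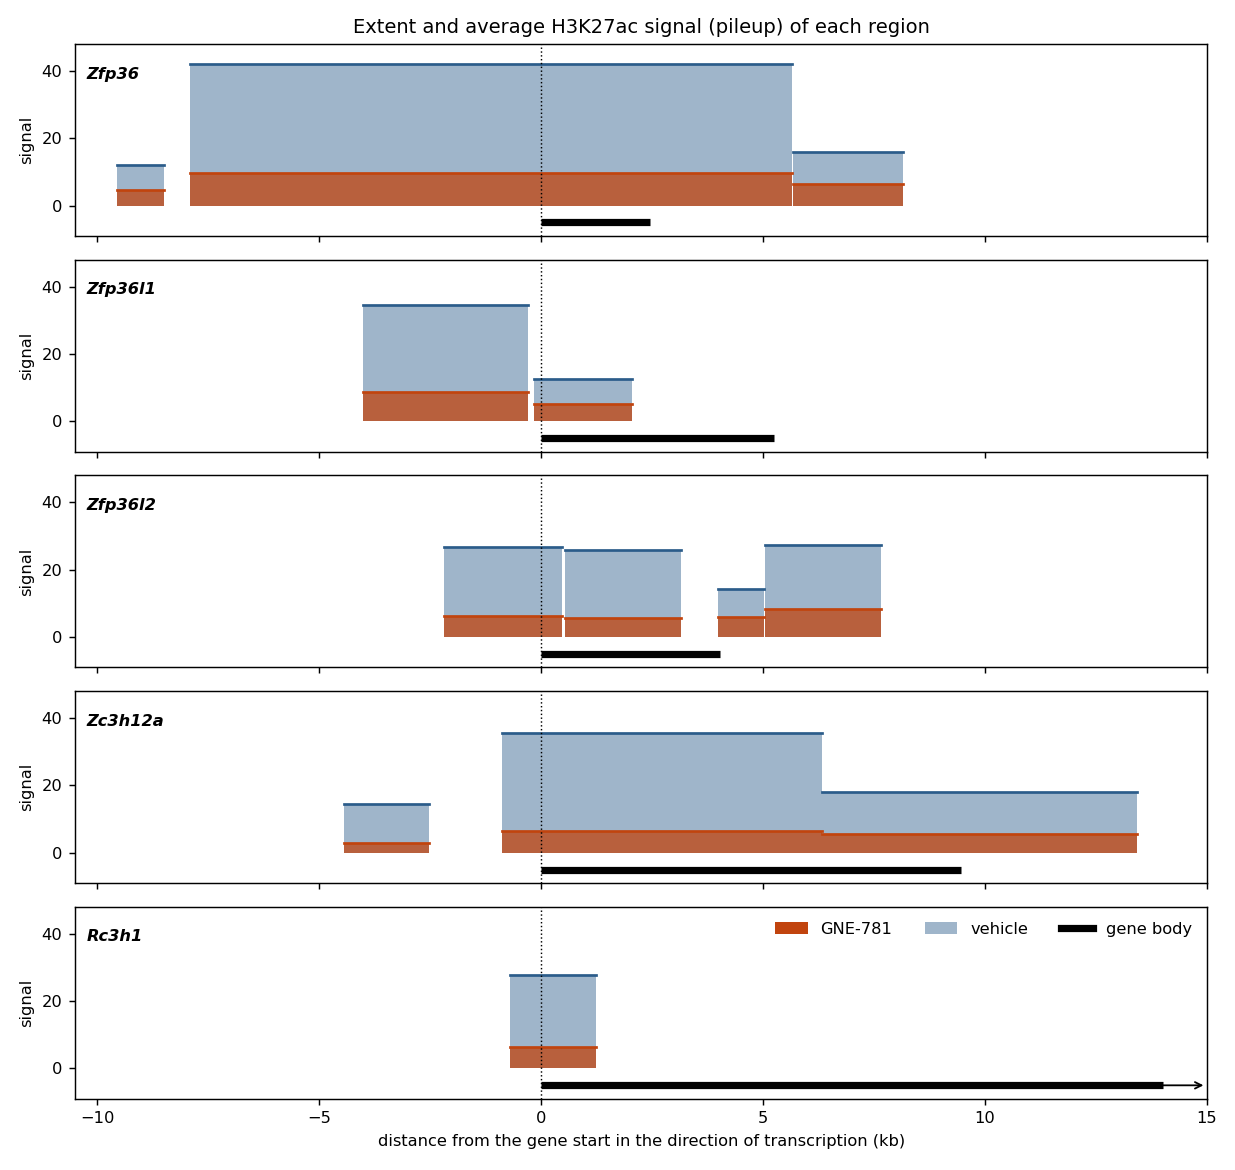
Extent of each region relative to the gene start (kb, along transcription) and its average H3K27ac signal (pileup) with GNE-781 (red) and vehicle (blue), with the gene body in black (Rc3h1 runs on to the right). The longest region spans Zfp36 and reaches 42.0 with vehicle. Rc3h1 has 1 region, at its start.

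The 4 promoters that the RefSeq table (GRCm38.p6) holds for these genes are printed because H3K27ac regions cover or border them, and they show how these 4 starts differ in sequence. Each line gives the 250 bases before the start, 5′ to 3′ on the strand of the gene, with matches to 10 motifs in capitals.
Zfp36, chr7:28379229-28379478, minus strand: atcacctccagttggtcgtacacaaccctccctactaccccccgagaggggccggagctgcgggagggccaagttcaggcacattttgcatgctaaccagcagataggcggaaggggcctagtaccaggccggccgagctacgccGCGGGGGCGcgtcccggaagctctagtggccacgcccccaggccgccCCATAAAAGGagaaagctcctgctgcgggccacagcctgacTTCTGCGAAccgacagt
Zfp36l1, chr12:80113014-80113263, minus strand: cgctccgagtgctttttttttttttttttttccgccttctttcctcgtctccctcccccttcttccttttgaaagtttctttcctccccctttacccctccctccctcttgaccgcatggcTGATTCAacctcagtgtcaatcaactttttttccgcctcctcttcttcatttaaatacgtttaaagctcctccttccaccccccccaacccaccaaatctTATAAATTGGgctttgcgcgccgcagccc
Zc3h12a, chr4:125127882-125128131, minus strand: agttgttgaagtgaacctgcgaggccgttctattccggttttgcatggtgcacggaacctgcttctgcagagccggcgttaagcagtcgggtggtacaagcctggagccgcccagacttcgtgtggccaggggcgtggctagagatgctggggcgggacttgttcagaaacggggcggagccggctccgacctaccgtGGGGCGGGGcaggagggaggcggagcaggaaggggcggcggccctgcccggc
Rc3h1, chr1:160906161-160906410, plus strand: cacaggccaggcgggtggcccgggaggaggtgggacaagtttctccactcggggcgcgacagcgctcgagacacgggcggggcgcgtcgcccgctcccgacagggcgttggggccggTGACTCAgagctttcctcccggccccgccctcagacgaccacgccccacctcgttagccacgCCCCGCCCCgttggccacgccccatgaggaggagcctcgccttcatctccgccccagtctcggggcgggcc
Zfp36l2 has no entry in that table. GC content was 64.8% in the Zfp36 window, 48.4% in Zfp36l1, 66.4% in Zc3h12a and 74.0% in Rc3h1, against a median of 52.4% over 32817 windows of all genes. The Zfp36 window holds the EGR motif GCGGGGGCG (found in 2.57% of all windows), an SRF CArG box (1.47%) and the STAT motif TTCNNNGAA (7.01%). Zfp36l1 has the AP-1 motif TGANTCA (6.75% of windows), and a TATA box, TATAAA (12.4%), that starts 29 bases before the start and shares a base with a CAAT box, CCAAT (33.8%), read on the other strand. Zc3h12a holds the SP1 motif GGGGCGGGG (10.4%), and Rc3h1 holds the SP1 and the AP-1 motif. The CRE TGACGTCA (1.55%), the ETS motif CCGGAAGT (2.88%) and the NF-kB site (3.90%) had no match in the 4 windows. Both strands were searched, and a match is a description of letters, not a binding site.

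Zfp36, on the minus strand of chromosome 7 (28376784 to 28379228), lies whole inside a single broad region (28373573 to 28387138). At 13565 bp it ranked 22 by length among all regions, and it was the only region merged from 9 called intervals. The table also assigns it to Plekhg2, Med29 and Paf1, whose starts lie outside it. Its average signal was 9.81 with inhibitor and 42.0 with vehicle, a difference of -1.99. The highest pileup in it was 25 with inhibitor and 114 with vehicle. An interval was still called with inhibitor. Signal with vehicle was weaker in 98.9% of all regions, and the difference was lower in 16.0% of them. A flanking region past the 3′ end (28371087 to 28373563), just 10 bp away, holds the start of Plekhg2. It had 6.43 with inhibitor and 15.8 with vehicle (-1.18). The third region, 9033 bp upstream (28387728 to 28388795) and shared with Med29 and Paf1, had 4.55 with inhibitor and 12.0 with vehicle (-1.23). Both weaker regions were called with vehicle alone. At Zfp36 the difference was thus larger in the region over the gene than in the 2 regions beside it, and all 3 are shared with neighbours.

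Zfp36l1 (chromosome 12, 80107760 to 80113013, minus strand) had its strong signal just upstream of the start and not over it. The upstream region (80113317 to 80117023) ends 304 bp before the start and overlaps 2 CpG islands. It had an average of 8.78 with inhibitor and 34.5 with vehicle, a difference of -1.86, and was called in both libraries. The region over the start (80110974 to 80113171) had 5.12 with inhibitor and 12.7 with vehicle (-1.16), and was not called with inhibitor. Its highest pileup was 10 with inhibitor and 21 with vehicle, the smallest peak difference of the 13. The 2 regions are 146 bp apart, and the stronger one had the larger difference by both measures. The table also assigns both to 2310015A10Rik, whose start is 17674 bp or more from the middle of either region.

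Zfp36l2 (chromosome 17, 84183924 to 84187947, minus strand) carried 3 regions of like strength with vehicle that were not alike with inhibitor. The region over its start (84187477 to 84190138) had an average signal of 6.33 with inhibitor and 26.8 with vehicle, a difference of -1.92. The region within the gene (84184805 to 84187403) had 5.71 with inhibitor and 25.9 with vehicle (-2.01). Beyond the 3′ end, a region with its middle 6354 bp from the start (84180286 to 84182900) had 8.26 with inhibitor and 27.4 with vehicle (-1.62). This downstream region has no CpG island, and it was the one of the 3 that was called with inhibitor. Its highest pileup was 21 with inhibitor and 58 with vehicle. At the other 2 the highest pileup with inhibitor was 14, against 52 (start) and 63 (gene body) with vehicle. A weak region between gene and downstream region (84182936 to 84183955) had 5.87 with inhibitor and 14.3 with vehicle (-1.16). All 4 are also assigned to Thada, whose start lies at least 277401 bp away.

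Zc3h12a (chromosome 4, 125118414 to 125127881, minus strand) had the lowest difference of the 5 genes. The region over its start and most of its body (125121550 to 125128758) had an average signal of 6.61 with inhibitor and 35.5 with vehicle, a difference of -2.26. Of all regions, 3.83% had a lower one. Its highest pileup was 22 with inhibitor and 152 with vehicle, a 6.91-fold lower peak beside a 5.38-fold lower average. An interval was called in both libraries. Only 3 bp separate it from a region over the 3′ end (125114451 to 125121547) that had 5.58 with inhibitor and 18.0 with vehicle (-1.53). The remaining region, 3487 bp upstream (125130406 to 125132331), had 3.02 with inhibitor, the lowest of the 13, and 14.5 with vehicle. Its difference was -1.94 by average signal and -1.38 by peak signal (9 with inhibitor and 25 with vehicle). The 3′ region is shared with Meaf6, whose start is 32852 bp away, and the other 2 belong to Zc3h12a alone.

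Rc3h1 (chromosome 1, 160906411 to 160974976, plus strand) is the longest of the 5 genes at 68566 bp and had 1 region, over its start (160905703 to 160907650). Signal there was 6.50 with inhibitor and 27.8 with vehicle, a difference of -1.94, and the highest pileup was 17 with inhibitor and 72 with vehicle. No interval was called with inhibitor. No other region of the table lies within 100 kb of the start, where the other 4 genes had between 7 (Zfp36l1, Zc3h12a) and 26 (Zfp36l2) regions that are not members. Of all genes with a region, 6234 of 13443 have 1.

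**Figure D2:**
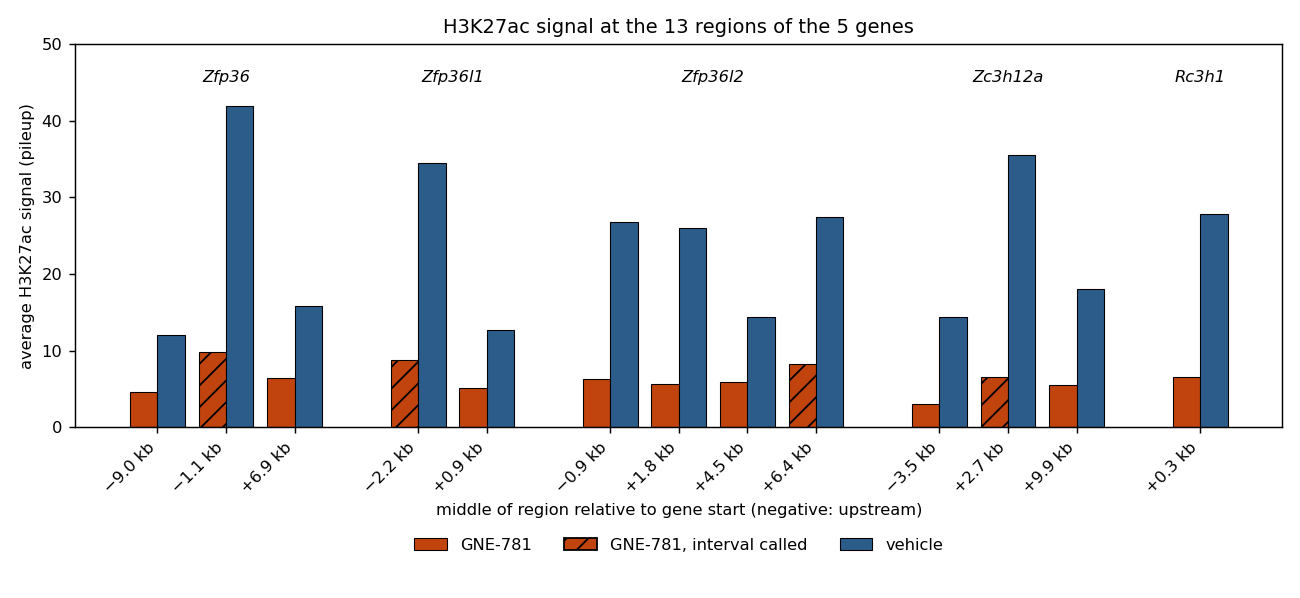
Average H3K27ac signal (pileup) with GNE-781 (red, hatched where an interval was called) beside vehicle (blue) for the 13 regions, labelled by the distance of the region's middle from the gene start. Vehicle values vary from 12.0 to 42.0, while inhibitor values stay between 3.02 and 9.81, and the 4 hatched bars are the 4 highest of them.

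Intervals were called at all 13 regions with vehicle (99.6% of all regions) and at 4 with inhibitor, which is 30.8% of the 13 against 10.3% of all regions. The member regions are strong, with a median vehicle signal of 25.9 against 14.5 over all regions. In 10 classes of all regions by vehicle signal, 59.4% of the strongest class was called with inhibitor. That class holds 5 of the 13 regions, and 4 of these 5 were called. The exception was the Rc3h1 region, at 6.50 with inhibitor, just under the lowest called member, the Zc3h12a region at 6.61. By peak signal, the called regions reached at least 21 with inhibitor and the others at most 17.

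Among the 13 regions the larger differences mostly went with stronger vehicle signal. The vehicle signal is itself a part of the difference, so some of this relation is built in. If the deposited average leaves out empty bins, as described under the processing below, weak signal is overstated. That would enter this relation as well, and its part was not tested. No correlation was computed. The regions upstream of Zc3h12a and downstream of Zfp36l2 departed from that order, and the Zfp36 region, the strongest of the 13, had a smaller difference than the Zc3h12a region at 35.5 with vehicle. Over the whole table the class medians ran from -1.31 (weakest) to -2.05 (strongest). Against the median of its own class, a member region lay between -0.45 (upstream of Zc3h12a) and 0.43 (downstream of Zfp36l2). Of the 13, 9 had a smaller difference than their class and 4 a larger one. The strongest Zfp36 region, 0.06 from its class, and the Zfp36l2 start, -0.04, were close to it. Both start-side regions of Zc3h12a were lower (-0.22 and -0.45), whereas its 3′ region was higher (0.13). A CpG island overlapped 8 regions, whose median was -1.93 (range -2.26 to -1.16), and none overlapped the other 5, at -1.53 (-1.94 to -1.16). The ranges overlap, and over all regions the medians were -1.76 with and -1.53 without an island. The 5 regions that hold the start of their gene had a median of -1.94, and the other 8 a median of -1.57. These groups were not matched for vehicle signal, so the medians cannot be read as a trait of gene starts.

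**Figure D3:**
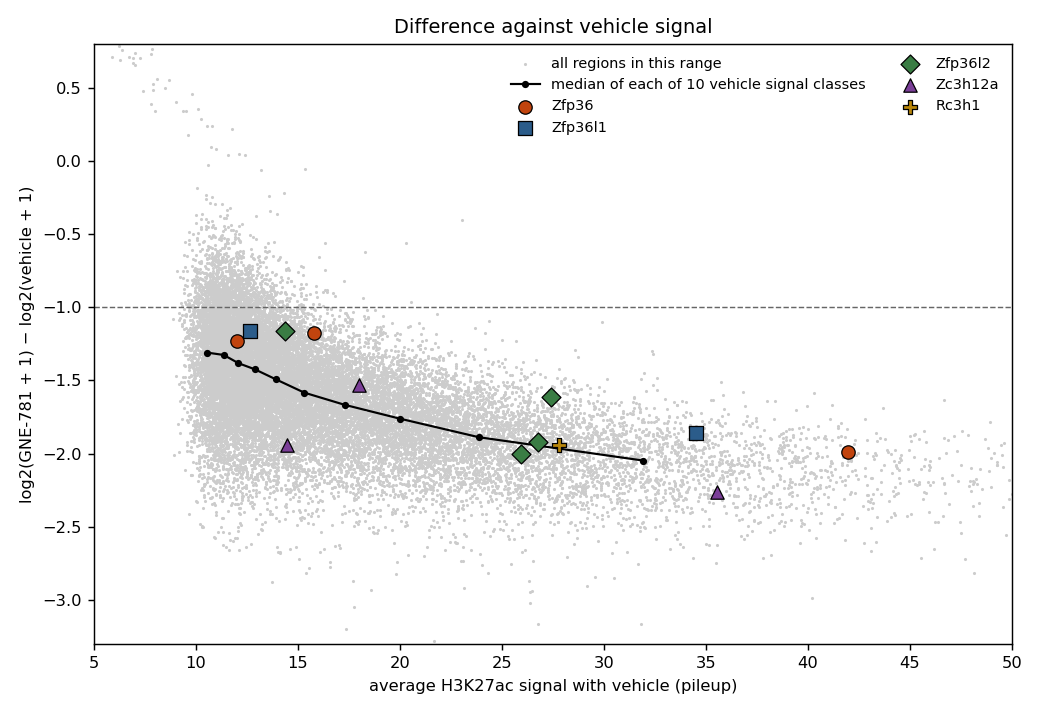
Log2 difference (GNE-781 against vehicle, pseudocount 1) against average vehicle signal (pileup) for all regions within the axes (grey) and the 13 member regions (coloured by gene), with the median of 10 vehicle signal classes (black line) and the 2-fold line (dashed). The 3 regions of Zfp36l2 near 27 with vehicle fan out from -2.01 to -1.62.

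The 5 genes ranked by the difference at their strongest region as Zc3h12a (-2.26), Zfp36 (-1.99), Rc3h1 (-1.94), Zfp36l1 (-1.86) and Zfp36l2 (-1.62). For Zfp36l2 that region is the one downstream, and for Zfp36l1 the one upstream. Over the gene starts themselves the order changed: Zc3h12a (-2.26), Zfp36 (-1.99), Rc3h1 (-1.94), Zfp36l2 (-1.92) and Zfp36l1 (-1.16). With the mean signal of all regions weighted by length, the 5 values drew together, from -1.97 for Zc3h12a (5.73 with inhibitor and 25.4 with vehicle) to -1.70 for Zfp36l1 (7.42 and 26.4 in the same order). No spread over samples is known, so neighbours in these orders cannot be separated. H3K27ac regions covered 17108 bp in all at Zfp36 and 16229 bp at Zc3h12a, more than at 97.5% and 97.1% of all genes, and 1947 bp at Rc3h1, below the gene median of 2677 bp.

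Genes with the most similar pair of signals were sought among the strongest regions of up to 13442 genes, by distance on the log2(signal + 1) scale over 2 libraries. Nearest to Zfp36 were Cd68, 2010012P19Rik and BC096441, which share a region at 9.77 with inhibitor and 41.9 with vehicle. Zfp36l1 was nearest to Swt1, Trmt1l and Pde12, and Zfp36l2 to Rpe, Unc80 and Sfpq. The nearest to Zc3h12a included Ykt6 and Hsd17b12, and those to Rc3h1 were 4932438A13Rik, Tceanc and Usp32. The largest of these distances was 0.0186.

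Around the genes, regions within 100 kb of the start that belong to no member were also lower with inhibitor. At Zfp36 there were 10, with differences from -2.37 to -1.20. One of them, over the starts of Med29 and Paf1, which encode subunits of the Mediator and of the PAF1 complex, had 7.16 with inhibitor and 25.9 with vehicle (-1.72). The 7 at Zfp36l1 ran from -2.05 to -0.91, the 26 at Zfp36l2 from -2.21 to -0.55 and the 7 at Zc3h12a from -2.13 to -1.01. Each of these 4 sets, which differ in size, held 1 region called with inhibitor, beside 10.3% of all regions. The largest vehicle signal in a set was 26.7 at Zfp36, 25.3 at Zfp36l1 and 34.6 at Zc3h12a, below the strongest region of the member in each case. At Zfp36l2 it was 30.2, above that of any region of the gene.

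The enzymes and partners that carry out the decay were searched as a list. Of 56 genes of this mRNA decay machinery, 55 had a region (Zc3h12b had none). The share of all annotated genes that have a region was not computed, so this count has no background. At the strongest region, 54 of the 55 were at least 2-fold lower, against 96.1% of all 13443 genes with a region. No gene of the list was higher. Their median difference was -1.90, compared with -1.78 over all genes. Intervals were called with inhibitor at 20 of the 55 (36.4%), against 23.2% of all genes. The strongest regions of these 55 genes had a median vehicle signal of 25.8. Of the 10 classes by vehicle signal, 59.4% of the strongest was called with inhibitor and 3.39% of the weakest. List and background were not matched for vehicle signal, so the shares cannot be read as a trait of these genes. The highest vehicle signals were at Cnot7, a deadenylase subunit of CCR4-NOT (12.3 with inhibitor and 58.5 with vehicle, -2.17), at the helicase gene Ddx6 (12.1 with inhibitor and 52.8 with vehicle, -2.04) and at Xrn1, the 5′ to 3′ exonuclease (10.9 with inhibitor and 49.3 with vehicle, -2.08). All 3 were called with inhibitor. The Cnot7 region is shared with Vps37a and the Xrn1 region with Atr and Gm16794.

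By role, the 5 genes of AU-rich element binding proteins had a median of -2.04. Tia1, a translational repressor, had the lowest difference of the whole list, with 6.50 with inhibitor and 46.2 with vehicle (-2.65) at a region shared with Pcyox1, and Elavl1, which encodes the stabilising protein HuR, the highest of the 5 (7.75 with inhibitor and 27.2 with vehicle, -1.69). The 4 relatives and antagonists of roquin and regnase with a region had a median of -1.83. Among them Arid5a, whose protein opposes Regnase-1 on IL-6 mRNA, had 5.33 with inhibitor and 27.9 with vehicle (-2.19), Zc3h12d -1.90, Rc3h2 -1.76 and Zc3h12c -1.42. The 15 genes of CCR4-NOT and its partners had a median of -1.94, and the 9 decapping and 5′ decay genes -2.04. The 4 other deadenylation genes stood at -2.09, and the 7 regulators, which include Mapk14 and Mapkapk2 of the p38 pathway that restrains ZFP36, at -1.93. The 11 exosome genes had the smallest median difference of these groups, -1.71. In this list too, a strongest region can lie far from the start and be shared with other genes. This holds at Exosc1 (20131 bp), Exosc2 (17935 bp), Exosc9 (19242 bp), Exosc10 (24218 bp), Khsrp (19827 bp) and Edc4 (19856 bp). Of these, Exosc1, Exosc2 and Edc4 enter the counts of called genes that follow. Called with inhibitor were 2 of 5 AU-rich element binding genes, 0 of 4 roquin and regnase relatives, 7 of 15 CCR4-NOT genes, 1 of 4 other deadenylation genes, 5 of 9 decapping genes, 3 of 11 exosome genes and 2 of 7 regulators, beside 23.2% of all genes. These counts were not matched for vehicle signal either. Exosc6, an exosome subunit gene, was the 1 gene short of 2-fold by average signal (7.02 with inhibitor and 11.6 with vehicle, -0.65). That region is shared with Aars.

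Genes whose mRNAs are known targets of these proteins were searched in the same way. Of 30 searched, 23 had a region, and Il6, Il10, Il12b, Il2, Csf2, Ccl2 and Icos had none. This count also has no background over all annotated genes. The 23 genes stand on 22 regions, since Cxcl1 and Cxcl2 share one. The Il23a region is also the strongest region of Pan2 in the machinery list, so its value enters both lists. All 23 were at least 2-fold lower by average signal (96.1% of all genes). Their median was -1.61 against -1.78 over all genes, and 8 of the 23 lay below that gene median. The lowest was Dusp1, a MAP kinase phosphatase gene, with 5.62 with inhibitor and 27.5 with vehicle (-2.11). The highest was Tnfrsf4, a receptor gene of the TNF family, with 5.71 with inhibitor and 14.8 with vehicle (-1.23). The Tnfrsf4 region has its middle 12488 bp from the start and is shared with Gm10560, Tnfrsf18 and Ttll10. The strongest vehicle signals belonged to Plk3, Rel and Tnf. The region assigned to Plk3, a polo-like kinase gene, had 21.0 with inhibitor and 82.3 with vehicle (-1.92), and it is shared with Btbd19 and Tctex1d4, with its middle 8272 bp from the Plk3 start. Rel, an NF-kB subunit gene, had 9.92 with inhibitor and 44.5 with vehicle (-2.06) at its start. For Tnf, the best known target of ZFP36, the strongest region lies 7076 bp from the start and is shared with Lst1, Ltb and Lta, at 11.4 with inhibitor and 39.4 with vehicle (-1.70). Intervals were called with inhibitor at 11 of the 23 target genes (47.8%, against 23.2% of all genes). Some called regions lie far from the start, as at Nfkbiz (17608 bp), Ccl3 (9525 bp) and Nfkbid (-10421 bp, shared with Tyrobp and Hcst). The strongest regions of the 23 had a median vehicle signal of 23.5, and these shares too were not matched for vehicle signal. The 5 decay factor genes had a median of -1.94 at their strongest regions. With 1 library per treatment, whether the lists differ was not tested.

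**Figure D4:**
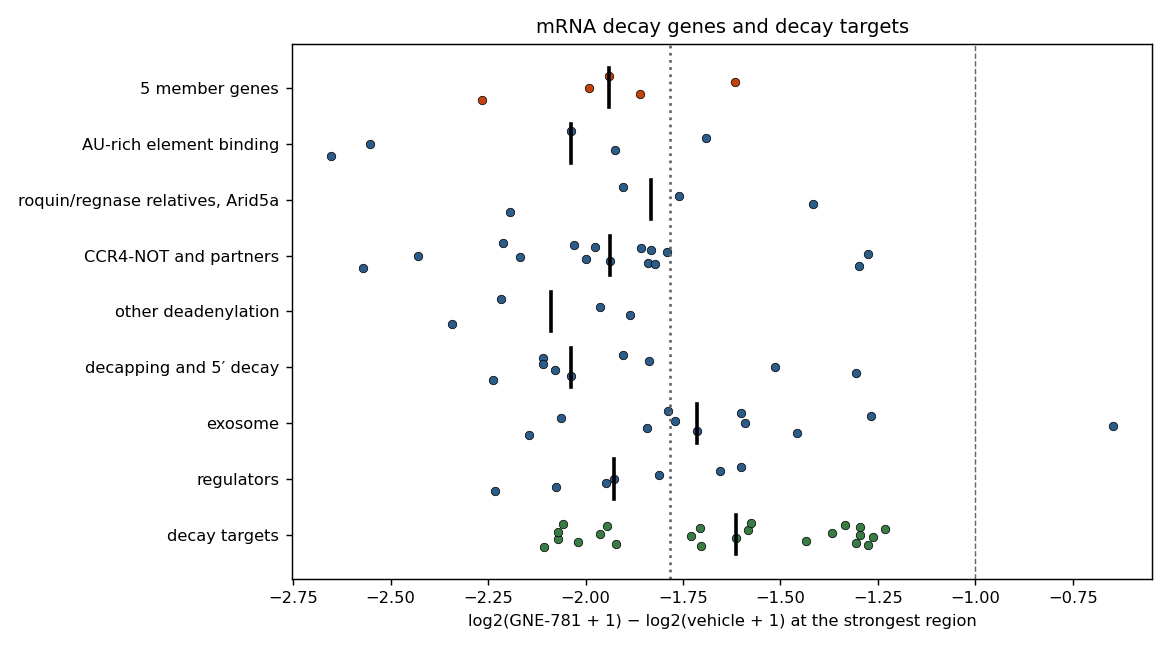
Log2 difference (GNE-781 against vehicle, pseudocount 1) at the strongest region of each gene (points) with group medians (black bars), the median of all genes (dotted, -1.78) and the 2-fold line (dashed). The 5 member genes lie within the spread of the machinery groups, Exosc6 is to the right of the 2-fold line, and the targets reach from -2.11 to -1.23.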

How the data were processed

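Average and peak H3K27ac signal per region were taken from the deposited table of the authors, in which both kinds of signal are fragment pileup. BWA and SICER, with the builds hg19 and dm3, are named in the submitters' processing notes, without versions or settings. Drosophila chromatin was spiked in, per the labels' protocols, and whether the deposited signal is scaled by it is not known. No average lay between 0 and 1, and the product of average and count of 32 bp bins was whole for 49.6% of regions with inhibitor and 95.7% with vehicle. An average that leaves out empty bins gives such values, and it overstates weak signal. The deposited distances of the member regions equal those from region middle to gene start in GRCm38 (largest gap 0 bp), so that build is named. Coordinates are printed as deposited. All 5 symbols matched the RefSeq gene table.

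Differences are log2(inhibitor signal + 1) minus log2(vehicle signal + 1), computed with Python 3.11.15, pandas 2.3.3 and numpy 2.4.6, and the functions were tested on simulated data. With 1 library per treatment no test was run, and the depth is unknown. Log2 values and folds are therefore descriptions of 2 libraries, and no counting interval is given. The input library has no column in the table and was not used. A gene is given by its strongest region, ranked by the mean of both libraries. Members and lists were chosen with earlier results of these data known. Genes named beyond the members are the lowest, the highest and those with the 3 highest vehicle signals of each list, the 3 genes nearest to each member in both libraries (1 of them is not reported here), genes that share a member region, and genes without a region. Other genes named as examples were chosen after their values were seen. Alternatives were peak signal, 2 other pseudocounts, recentring, a filter on weak regions, other choices of a gene's region and, added after seeing the data, a length-weighted mean.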

Additional observations from a re-analysis of the deposited data

How the results depend on the processing

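No paired analysis was possible because each treatment has 1 library. The strongest region of each member gene and the median over member regions stayed below 0 under every alternative run, although 5 of the 13 single regions lay above 0 after recentring. The counts of member, machinery and target genes or regions at least 2-fold lower stayed within 1.5 times except under recentring on the median of all regions. With peak signal, 20 of the 23 target genes and all 55 machinery genes were at least 2-fold lower, beside 88.5% of all regions. That share counts regions and not genes. No share of all genes by peak signal is given, so these gene counts have no like background. Recentring left 0 of 13 member regions, 1 machinery gene and 0 target genes at least 2-fold lower, moved the median over member regions to -0.26, and gave -0.38 for Zfp36, -0.26 for Zfp36l1, -0.0092 for Zfp36l2, -0.66 for Zc3h12a and -0.33 for Rc3h1. With peak signal the strongest regions stood at -2.15 for Zfp36, -2.19 for Zfp36l1, -1.42 for Zfp36l2, -2.73 for Zc3h12a and -2.02 for Rc3h1 (median over member regions -1.71). With no pseudocount they stood at -2.10, -1.98, -1.73, -2.43 and -2.10 in the same order (median -1.98), and with a pseudocount of 0.990 at most 0.01 from the reported values (Zc3h12a -2.27). The mean of a gene's regions gave -1.47 for Zfp36, -1.51 for Zfp36l1, -1.68 for Zfp36l2 and -1.91 for Zc3h12a, and the length-weighted mean, chosen after seeing the data, -1.90, -1.70, -1.78 and -1.97. The region nearest the start gave -1.16 for Zfp36l1 and -1.92 for Zfp36l2. Regions in the promoter stretch of a member (7500 bp upstream to 2500 bp downstream of its start) had a median of -1.94. Leaving out regions under the lower quartile of mean signal removed no member. The cause of these shifts was not tested. Depth is unknown, and without replicates the data cannot show which differences between members exceed the error.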
